A study of Mus musculus with 12 samples.

Results

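Glucose uptake and glycolysis in the mouse heart were followed through 10 genes: the glucose transporters Slc2a1 and Slc2a4, the hexokinases Hk1 and Hk2, the phosphofructokinase Pfkm with its regulators Pfkfb1 and Pfkfb2, Gapdh, and the lactate dehydrogenases Ldha and Ldhb. They were chosen by symbol among the 24918 gene rows of the deposited expression table. All 10 were found, each in 1 row, and all passed the filter on low values that left 14721 genes for testing. RNA of hearts from untreated C57BL/6 mice, 2 months old, was sequenced in 12 libraries, 3 in each of 4 groups. Male floxed and female floxed mice are homozygous for a loxP-flanked glucocorticoid receptor gene (Nr3c1) and serve as controls. Male and female cardioGRKO mice carry the same 2 floxed alleles plus 1 copy of Cre under the αMHC promoter, which is active in cardiomyocytes, so that other cells of the heart keep the receptor. The groups rest on the titles, since the genotype field reads wild-type for every library. The floxed groups carry no Cre by their titles, so an effect of Cre and one of the deletion cannot be told apart. The study asked, per its design text and title, what changes in the heart when cardiomyocytes lack the receptor, and how this depends on sex.

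Values are the authors' normalized expression on a log2 scale, where a difference of 1 is a doubling. The targeted gene Nr3c1 was 11.41 ± 0.015 (SD, n = 3) in male floxed and 10.85 ± 0.027 in male cardioGRKO libraries, a difference of -0.56. Under the female floxed label it was 10.74 ± 0.034, and under the female cardioGRKO label 10.88 ± 0.029, higher by 0.14 and so opposite to what the labels imply (limma, adjusted p = 0.00038). Every direction below for the female libraries therefore follows labels that the targeted gene does not bear out. Both female groups lay near the male cardioGRKO level of 10.85, and neither reached the male floxed level of 11.41. Exchanging the female labels would give a loss of 0.14, against 0.56 in males, so the targeted gene does not settle the labels either way. Values under exchanged labels are given only to show how results depend on them. The libraries labelled female floxed 1 and 2 also held corneal epithelial transcripts, with Krt12 at 13.13 and 13.98 against 7.16 to 8.49 in the other 10 libraries. Some female results are also given without these 2 libraries, and the female counts of the other gene lists include them. Myh6, the cardiac myosin heavy chain, lay between 19.34 and 19.51 in every library, and 0 of the 12 cardiomyocyte markers was absent. In bulk tissue, fewer cells of a type and less RNA per cell cannot be told apart. The labels do not say whether replicates came from different mice. The p-values therefore measure only how much the deposited replicates vary, and that variation may be technical.

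As background, glucose enters heart muscle through GLUT1, the product of Slc2a1, which sits at the surface at all times, and GLUT4, the product of Slc2a4, which insulin and contraction bring to the surface. Hexokinase traps it as glucose phosphate, phosphofructokinase commits it to glycolysis, and the bifunctional PFKFB enzymes make and break the sugar bisphosphate that switches phosphofructokinase on. Lactate dehydrogenase joins pyruvate and lactate at the end of the pathway. The adult heart burns mostly fatty acids and takes up lactate as a fuel. Glucocorticoids are known to limit glucose use in skeletal muscle and fat.

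In male hearts, 6 of the 10 genes differed between cardioGRKO and floxed libraries, 5 lower and 1 higher, against 27.4% of all genes tested (14.6% lower and 12.8% higher). Pfkfb1 fell to 66.6% of its floxed level, Ldhb to 86.2%, Ldha to 91.0%, Hk2 to 92.1% and Slc2a4 to 95.2%, and Hk1 rose to 107%. In the libraries labelled female, 6 of 10 differed as well, 4 higher and 2 lower, against 29.3% of all genes (15.2% higher and 14% lower). Pfkm stood at 108% of the floxed level, Ldha and Hk2 at 106% each and Ldhb at 103%, while Slc2a1 and Pfkfb2 were lower, at 87.6% and 94.0%. Only Pfkfb1 in males exceeded a 1.2-fold difference, as 3.26% of all genes did there, and 0 of the 10 did in females (2.72%). The median difference of the 10 genes was -0.053 in males and 0.037 in females, beside -0.0021 and -0.0004 over all genes tested. Hk2, Ldha and Ldhb were the genes called in both sexes, and under the labels as given 0 of the 10 were called in the same direction in both (3.94% of all genes). All 3 would be lower in both sexes if the female labels were exchanged (8.57% of all genes). After quantile normalization the calls were 2 higher and 5 lower in males and 1 higher and 3 lower in females. In each sex the cardioGRKO and floxed libraries did not overlap for 7 of the 10, which held for 41.4% of all genes in males and 40.7% in females. Without the libraries labelled female floxed 1 and 2, 6 genes were again called in females, 3 higher and 3 lower.

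**Figure D1:**
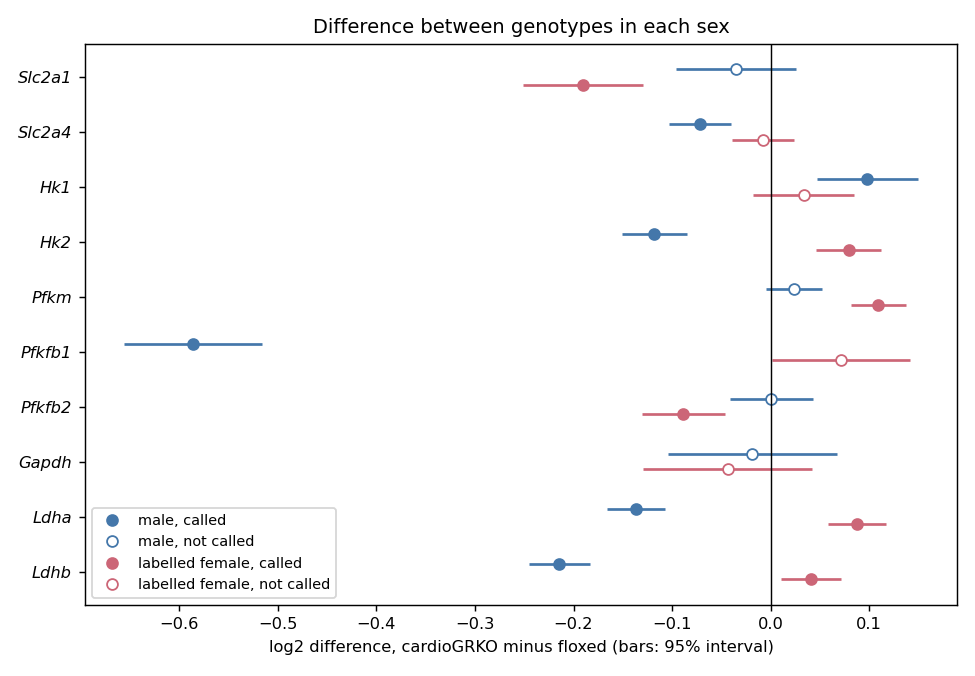
Log2 difference between cardioGRKO and floxed libraries (horizontal axis) for each of the 10 genes in males (blue) and in the libraries labelled female (red), with limma's 95% interval; filled points passed the test and open points did not. Pfkfb1 stands at -0.59 in males, and Hk2, Ldha and Ldhb lie below 0 in males and above 0 in females, although Hk2 and Ldhb lose the female call after quantile normalization.

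The male and the female difference were themselves compared, and 8 of the 10 genes differed between the sexes, 6 with the male value lower and 2 with it higher, against 31.3% of all genes (17% and 14.3%). After quantile normalization the split was 4 and 4. With the female labels exchanged, 7 would be called, 5 with the male value lower and 2 with it higher, against 24.6% of all genes (12.4% and 12.2%). Pfkfb1 was the 1 gene whose sex difference exceeded 1.2-fold (7.59% of all genes). Under the labels as given, Hk2, Ldha and Ldhb were called in opposite directions in the 2 sexes, as were 8.57% of all genes (3.94% with the female labels exchanged). Their male minus female differences were -0.20, -0.22 and -0.26, and -0.095, -0.165 and -0.134 after quantile normalization, all called. Under exchanged female labels they were -0.039, -0.049 and -0.174, of which that of Ldhb was called (limma, adjusted p = 0.22, 0.076 and 1e-05). Hk1 and Gapdh were not called in this comparison (adjusted p = 0.17 and 0.78), but after quantile normalization Hk1 was, at 0.144 in place of 0.065 (adjusted p = 0.0055).

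Among the transporters, Slc2a4 was lower in males and Slc2a1 in females. Slc2a4 read 13.61 in all 3 male floxed libraries and 13.55, 13.54 and 13.53 in the male cardioGRKO libraries. The groups did not overlap, and the difference was -0.071 (SE 0.015, limma, adjusted p = 0.0015). In the libraries labelled female it was 13.47, 13.49 and 13.50 under the floxed and 13.47, 13.47 and 13.50 under the cardioGRKO label, with a 95% interval of the difference from -0.039 to 0.024. After quantile normalization the female difference was -0.059 (adjusted p = 0.0032). The test between sexes gave -0.064 (adjusted p = 0.029), which was lost under 10 of 21 alternatives, among them quantile normalization (-0.006, adjusted p = 0.84).

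Slc2a1 read 8.89, 8.88 and 8.85 in male floxed and 8.82, 8.86 and 8.83 in male cardioGRKO libraries, which overlap. It was 8.90, 8.89 and 8.82 under the female floxed label and 8.71, 8.68 and 8.64 under the female cardioGRKO label, where the libraries form the lowest group of the 4. The female difference of -0.19 (SE 0.029, limma, adjusted p = 0.0001) was -0.14 without the 2 libraries with epithelial transcripts (adjusted p = 0.021). Its difference between sexes of 0.16 (adjusted p = 0.0074) fell to 0.105 without them (adjusted p = 0.15). Those 2 libraries had the highest Slc2a1 values of the female floxed group, and the part of epithelial RNA in this was not tested.

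The hexokinases moved in opposite directions in males. Hk1, the isoform of most tissues, read 12.45, 12.45 and 12.37 in male floxed libraries and 12.52, 12.50 and 12.54 in male cardioGRKO libraries, higher by 0.098 (SE 0.024, limma, adjusted p = 0.0054). Hk2, the insulin-responsive isoform of muscle and fat, read 12.98, 13.00 and 13.00 in male floxed and 12.86, 12.88 and 12.89 in male cardioGRKO libraries, lower by -0.118 (SE 0.016, adjusted p = 1.9e-05). After quantile normalization the male Hk2 difference was -0.054 (adjusted p = 0.014). All male floxed libraries lay below all cardioGRKO libraries for Hk1 and above them for Hk2. In females Hk2 ran the other way, at 12.76, 12.76 and 12.77 under the floxed and 12.84, 12.84 and 12.85 under the cardioGRKO label. That rise of 0.079 (SE 0.016, adjusted p = 0.0011) was not called after quantile normalization (0.041, adjusted p = 0.055). Female Hk1 libraries overlapped between the labels, at 12.35 to 12.39 and 12.36 to 12.43, and the difference of 0.034 was -0.006 after quantile normalization, neither called.

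Pfkfb1, the bifunctional regulator first described in liver and skeletal muscle, showed the largest difference of the 10 genes in males and lies on the X chromosome. It read 8.15, 8.21 and 8.08 in male floxed and 7.55, 7.54 and 7.59 in male cardioGRKO libraries. The lowest floxed library stood well above the highest cardioGRKO library, and the difference was -0.59 (SE 0.033, limma, adjusted p = 7.6e-10). In the libraries labelled female it was 7.76, 7.71 and 7.79 against 7.80, 7.84 and 7.83, which did not overlap but were not called (0.072, adjusted p = 0.12). The sexes differed by -0.66 (SE 0.046, adjusted p = 1.2e-08), a value that stayed between -0.69 and -0.62 and called under all 21 alternatives with the labels as given. Under exchanged female labels it was -0.52 (adjusted p = 5.3e-07). From the highest to the lowest, the groups ran from male floxed (8.14) to female cardioGRKO (7.82), female floxed (7.75) and male cardioGRKO (7.56), and the difference between the middle 2 was not called.

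Pfkfb2, the isoform typical of heart, was at the same level in both male groups, 12.10, 12.09 and 12.11 against 12.09, 12.13 and 12.08, with an interval of the difference from -0.041 to 0.043. Under the female labels it read 12.25, 12.24 and 12.28 in floxed and 12.16, 12.15 and 12.20 in cardioGRKO libraries. It was lower there by -0.089 (SE 0.020, adjusted p = 0.0031), and by -0.11 without the 2 libraries with epithelial transcripts (adjusted p = 0.0091). After quantile normalization it was -0.137 in females, and the difference between sexes was 0.163 (adjusted p = 0.00023). Without that step the sexes differed by 0.089 (adjusted p = 0.022), a call that was lost without male cardioGRKO 2, female floxed 3 or female cardioGRKO 2 (adjusted p = 0.064, 0.054 and 0.061).

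Pfkm, the muscle subunit of phosphofructokinase, read 15.08, 15.08 and 15.06 in male floxed and 15.11, 15.09 and 15.09 in male cardioGRKO libraries (0.024, limma, adjusted p = 0.21). In females it rose from 14.92, 14.91 and 14.94 to 15.03, 15.04 and 15.04, by 0.109 (SE 0.013, adjusted p = 1.1e-05). Quantile normalization turned this picture around, with 0.087 in males (adjusted p = 0.00015) and 0.006 in females (adjusted p = 0.78). The male minus female difference of Pfkm accordingly went from -0.086 (adjusted p = 0.0020) to 0.081 (adjusted p = 0.0046), so its direction depends on the scaling.

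Gapdh, the glyceraldehyde phosphate dehydrogenase often used as a reference gene, was not called in either sex. It read 11.07, 11.06 and 11.07 in male floxed, 11.10, 10.96 and 11.07 in male cardioGRKO, 11.13, 11.12 and 11.28 in female floxed and 11.14, 11.17 and 11.09 in female cardioGRKO libraries. Its intervals ran from -0.105 to 0.067 in males and from -0.130 to 0.042 in females, the widest of the 10 genes. Without the libraries labelled female floxed 1 and 2, the female difference was -0.15 (adjusted p = 0.0083). That value rests on the single library labelled female floxed 3, the highest of the 12. Gapdh has many near-identical processed pseudogenes, and how the authors' counting treated reads shared with them is not given in the sources used here, so its values are uncertain.

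**Figure D2:**
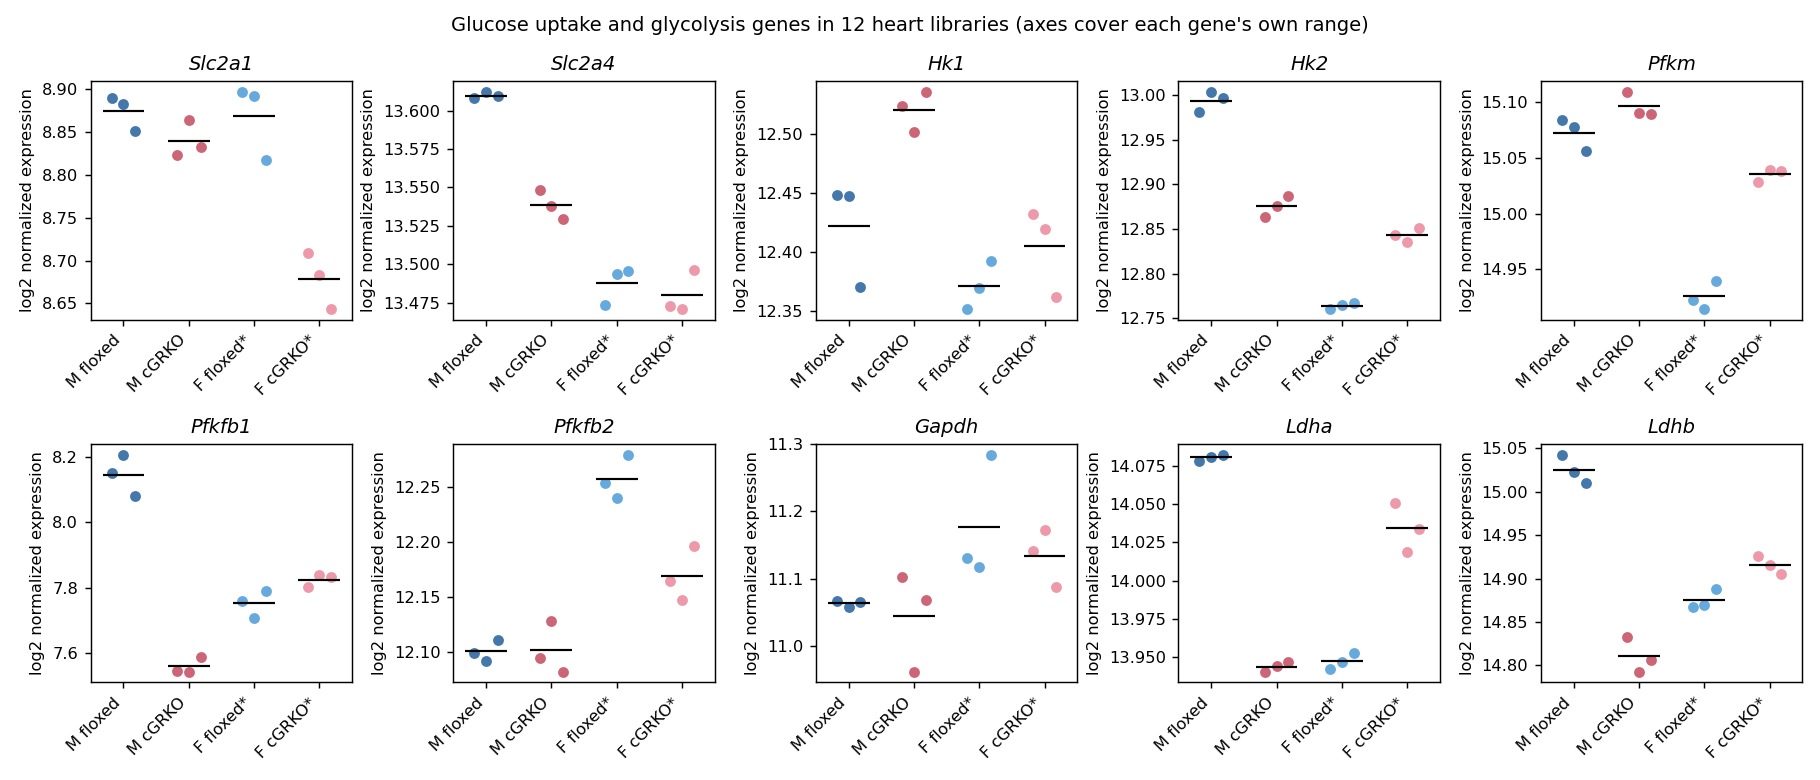
Log2 normalized expression (vertical axes, each scaled to its gene) of the 10 genes in the 12 libraries, as points for replicates 1 to 3 and a line for the mean of each group; M and F are male and female, cGRKO is cardioGRKO, and an asterisk marks groups named as labelled. Male floxed libraries are the highest group for Slc2a4, Hk2, Pfkfb1, Ldha and Ldhb, and Gapdh is spread by the library labelled female floxed 3 at 11.28.

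Both lactate dehydrogenase genes fell in males. Ldhb, whose subunit prevails in the heart, read 15.04, 15.02 and 15.01 in male floxed and 14.83, 14.79 and 14.81 in male cardioGRKO libraries, lower by -0.214 (SE 0.014, limma, adjusted p = 7.8e-09). Ldha, whose subunit prevails in fast skeletal muscle, read 14.08 in each male floxed library and 13.94, 13.94 and 13.95 in male cardioGRKO libraries, lower by -0.137 (SE 0.014, adjusted p = 9.4e-07). Neither gene's male groups overlapped, and after quantile normalization the differences were -0.132 and -0.089, both called. In females Ldha rose from 13.94, 13.95 and 13.95 to 14.05, 14.02 and 14.03, by 0.087 (adjusted p = 0.00017). It was called there under all 16 alternatives, at 0.076 to 0.095. Ldhb stood at 14.87, 14.87 and 14.89 against 14.93, 14.92 and 14.91, a rise of 0.041 with adjusted p = 0.044. That call was lost under 12 of 16 alternatives. Among them were quantile normalization (0.002) and leaving out female floxed 1 or 2 or any of the 3 female cardioGRKO libraries (adjusted p = 0.13, 0.091, 0.12, 0.099 and 0.056).

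Start-site windows of RefSeq (build GRCm38.p6, 250 bases before to 50 after the annotated start) were available for 9 of the 10 genes, in 19 windows. They are shown for Ldha and Ldhb, which fell together in males, and for Hk2 and Pfkfb1, which fell with them. Capitals mark ACGTG, a form of the core bound by hypoxia-inducible factor, on either strand. Other forms of that core were not searched. CACGTG, the E-box of the clock and of carbohydrate sensing factors, contains ACGTG on both strands.
Ldha (chr7:46845554-46845853, plus strand): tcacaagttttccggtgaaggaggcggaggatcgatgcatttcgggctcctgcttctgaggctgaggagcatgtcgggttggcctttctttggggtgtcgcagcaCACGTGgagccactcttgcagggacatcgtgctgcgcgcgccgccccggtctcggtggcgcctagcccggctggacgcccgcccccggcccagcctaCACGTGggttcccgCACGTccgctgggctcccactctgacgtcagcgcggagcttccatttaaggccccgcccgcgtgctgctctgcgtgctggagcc
Ldhb (chr6:142507908-142508207, minus strand): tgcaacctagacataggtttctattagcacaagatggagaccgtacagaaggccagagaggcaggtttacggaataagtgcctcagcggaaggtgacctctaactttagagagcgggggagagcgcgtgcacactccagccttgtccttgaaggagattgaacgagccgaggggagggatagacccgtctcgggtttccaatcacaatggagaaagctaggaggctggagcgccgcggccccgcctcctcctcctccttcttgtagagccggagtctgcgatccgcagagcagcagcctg
Hk2 (chr6:82774405-82774704, minus strand): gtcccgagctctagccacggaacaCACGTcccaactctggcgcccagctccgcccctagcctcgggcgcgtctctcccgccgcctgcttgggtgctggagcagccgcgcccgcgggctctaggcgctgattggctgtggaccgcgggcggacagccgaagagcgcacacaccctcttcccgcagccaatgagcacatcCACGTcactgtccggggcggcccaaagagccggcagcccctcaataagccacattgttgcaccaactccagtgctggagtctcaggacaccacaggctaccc
Pfkfb1, the first of 4 windows (chrX:150587195-150587494, plus strand): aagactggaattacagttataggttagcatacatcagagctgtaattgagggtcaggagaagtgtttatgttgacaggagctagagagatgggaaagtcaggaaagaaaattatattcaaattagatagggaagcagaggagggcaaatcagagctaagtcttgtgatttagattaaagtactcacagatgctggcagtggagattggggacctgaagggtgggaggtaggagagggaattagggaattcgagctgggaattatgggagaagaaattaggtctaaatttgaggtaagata

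ACGTG was found in 9 of the 19 windows, belonging to 7 genes, and in 24.6% of the windows of all genes tested. CACGTG was found in 3 windows, of Pfkm, Pfkfb2 and Ldha, against 9.65% of those windows. Ldha held CACGTG at 2 places and a further ACGTG, and Hk2 held ACGTG at 2 places. Neither the Ldhb window nor any of the 4 Pfkfb1 windows held ACGTG, and other forms of the core were not searched in them. The palindromic receptor element, AGAACA and TGTTCT with any 3 bases between them, was in 0 of the 19 windows and in 0.00681% of those of all genes tested. Its arm TGTTCT alone, on either strand, was in 4 windows, of Hk1, Pfkm, Pfkfb2 and Gapdh, against 12.8%. The shares cover 14680 windows for the 14721 genes tested, while 9 of the 10 genes have 19, so counts and shares are not like measures. A gene with more windows has more chances of a match, and some windows of Pfkm and of Pfkfb2 overlap. These matches describe the letters of short windows and say nothing on binding.

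Ratios within a library do not depend on how libraries were scaled to each other by a common factor, and 4 isoform pairs were compared in each sex, 8 tests in all. With 3 against 3 libraries the exact two-sided permutation test cannot go below 0.1, and 7 of the 8 gave that value (adjusted p = 0.11). The log2 ratio of Hk1 to Hk2 was -0.53, -0.56 and -0.63 in male floxed and -0.34, -0.37 and -0.35 in male cardioGRKO libraries, a shift of 0.22 toward Hk1 without overlap. In females it shifted by -0.05, and without single libraries by -0.06 to -0.02. The ratio of Pfkfb1 to Pfkfb2 was -3.95, -3.89 and -4.03 in male floxed and -4.55, -4.59 and -4.49 in male cardioGRKO libraries, a shift of -0.59. Under the female labels it was -4.49, -4.53 and -4.49 against -4.36, -4.31 and -4.37, a shift of 0.16 the other way. The ratio of Ldha to Ldhb shifted toward Ldha in both sexes, by 0.08 in males and 0.05 in females, or by 0.04 and 0.07 after quantile normalization, which is no common factor and turns the order of the sexes. That of Slc2a1 to Slc2a4 shifted by -0.18 in females (exact p = 0.1) and by 0.04 in males (exact p = 0.2, with overlapping libraries).

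**Figure D3:**
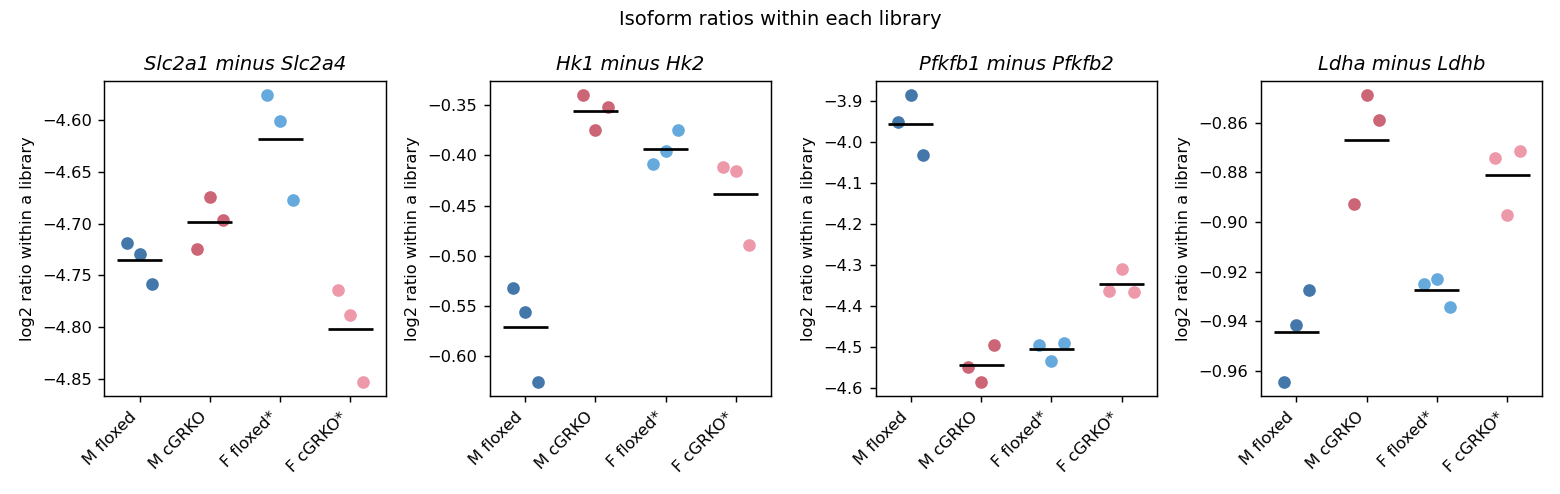
Log2 ratio of the first to the second isoform within each library (vertical axes), with points for libraries 1 to 3 and lines for group means; an asterisk marks groups named as labelled. The Pfkfb1 to Pfkfb2 ratio is lower by 0.59 in male cardioGRKO libraries and higher by 0.16 in those labelled female cardioGRKO.

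The control groups differed from each other for most of the 10 genes. Between female and male floxed libraries 8 of 10 were called, 6 lower and 2 higher in females, against 44.2% of all genes (22.7% and 21.5%), and 8 did not overlap (50.8%). With median centring the split was 7 lower and 1 higher, and after quantile normalization 4 lower and 3 higher. Pfkfb1 exceeded 1.2-fold, as did 6.32% of all genes. Pfkfb1 was lower in female floxed libraries by -0.39, Hk2 by -0.23, Ldhb by -0.15, Pfkm by -0.15, Ldha by -0.13 and Slc2a4 by -0.12, while Pfkfb2 was higher by 0.16 and Gapdh by 0.11 (limma, adjusted p from 4e-09 for Hk2 to 0.031 for Gapdh). After quantile normalization Pfkm and Ldhb stood at 0.048 and 0.002 instead, and Hk2, Ldha and Slc2a4 at -0.146, -0.065 and -0.048. With the female labels exchanged, 8 would again be called between the floxed groups, 7 lower and 1 higher in females (31% of all genes), and 8 between the cardioGRKO groups, 4 in each direction (35.2%). Between the cardioGRKO groups 8 were also called, 4 higher and 4 lower in females, against 24.2% of all genes (11.9% and 12.4%), and 9 did not overlap (40.1%). Pfkfb1 was again the 1 gene over 1.2-fold (1.88% of all genes). Pfkfb1 was higher there in females by 0.27, Ldhb by 0.105, Ldha by 0.091 and Pfkfb2 by 0.068, and Slc2a1, Hk1, Pfkm and Slc2a4 were lower by -0.16, -0.12, -0.061 and -0.059. With a replicate block in the fit, 4 were called, 3 higher and 1 lower. That fit compared the sexes at the fitted level of replicate 1 and not between group means, so it is not the same comparison. These comparisons share their libraries with the genotype comparisons and are no separate evidence for them.

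Genes whose values over the 12 libraries lay nearest to those of Pfkfb1, each gene centred on its own mean, were Lrtm1, Whrn and Irf7, at root mean square distances of 0.070, 0.072 and 0.073 log2 units. The median distance over all genes tested was 0.218. Their means in male floxed and male cardioGRKO libraries were 12.95 and 12.49 for Lrtm1, 10.55 and 10.08 for Whrn, and 9.90 and 9.44 for Irf7, an interferon regulatory factor. These genes were picked for closeness over the same libraries, so a like fall in males follows from the choice. Nearest to Slc2a1, the gene with the largest difference in females, were Zfp467 and Gramd1b, at 0.033 and 0.037, among the 3 closest, with a median of 0.098 over all genes.

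For the lists that follow, the share of all genes called was 27.4% in males (14.6% lower and 12.8% higher) and 29.3% in females (15.2% higher and 14% lower). Nothing particular to a list is read from its count. Of 20 other tested enzymes of glycolysis, 5 were lower and 2 higher in male cardioGRKO hearts (median -0.004), and 9 were higher and 1 lower under the female cardioGRKO label (median 0.062). The male split was 4 and 4 after quantile normalization, and 6 lower and 1 higher with median centring. Aldoa, the muscle aldolase, was 16.01 in male floxed and 15.85 in male cardioGRKO libraries (-0.16, limma, adjusted p = 3.2e-07), but stood at -0.021 after quantile normalization (adjusted p = 0.54). Fbp2, the muscle enzyme that runs the phosphofructokinase step backward, fell by 0.27 in males and rose by 0.13 in females. Pgam2, the muscle phosphoglycerate mutase, rose by 0.11 in males. In females Bpgm, which makes bisphosphoglycerate in red cells, rose by 0.37, Pfkl, the liver phosphofructokinase, by 0.23 and the triose phosphate isomerase Tpi1 by 0.16. The tested red cell markers moved alongside: the 3 were called higher in females, summing to 965 to 1020 in floxed and 1540 to 1620 in cardioGRKO libraries on the linear scale. Hba-a1 and Hbb-b1 were listed at 0 throughout, and the part of red cells in these values was not tested.

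Of 26 tested genes that carry pyruvate, lactate and reducing equivalents, 15 were lower and 4 higher in males (median -0.094) and 11 were higher and 0 lower in females (median 0.050). After quantile normalization the female split was 8 higher and 2 lower, and the male one 11 lower and 4 higher. Got1, the cytosolic aspartate aminotransferase of the malate-aspartate shuttle, had the largest male difference, from 14.53, 14.52 and 14.50 to 14.07, 14.05 and 14.05 (-0.46, limma, adjusted p = 1.2e-12). Pdhb and Dld, subunits of the pyruvate dehydrogenase complex, fell by 0.20 and 0.18 in males, and Mdh1 by 0.17, although Mdh1 was at -0.020 after quantile normalization. In females Gpd1, the cytosolic glycerol phosphate dehydrogenase, rose by 0.56 and Pdk4, the kinase that shuts pyruvate dehydrogenase, by 0.50, from 14.04, 13.99 and 14.06 to 14.50, 14.54 and 14.54. Dlat, another subunit of the complex, rose by 0.11. Bsg, the chaperone of lactate transporters, rose by 0.085 but stood at -0.006 after quantile normalization. Adipocyte markers moved alongside Gpd1, with 7 of 8 called higher in females and summed levels of 20400 to 21400 in floxed and 23500 to 24000 in cardioGRKO libraries. Most of these sums came from Fabp4, named after its values were seen, with means of 14.25 and 14.40 under the 2 labels. The part of adipocytes in the Gpd1 difference was not tested.

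Glycogen genes were lower in 9 and higher in 5 of 22 cases in males (median -0.045, or 7 lower and 6 higher after quantile normalization), and higher in 10 and lower in 2 in females (median 0.063). Gys1, the muscle glycogen synthase, fell by 0.25 in males and rose by 0.15 in females, and Pygm, the muscle phosphorylase, rose by 0.19 in females. Ppp1r3c, which targets a phosphatase to glycogen, rose in both sexes, by 0.41 in males and 0.17 in females. Pygb, the brain phosphorylase, and Phkg1, a catalytic subunit of phosphorylase kinase, rose by 0.21 and 0.27 in males, and Stbd1, a glycogen-binding protein, by 0.23 in females.

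**Figure D4:**
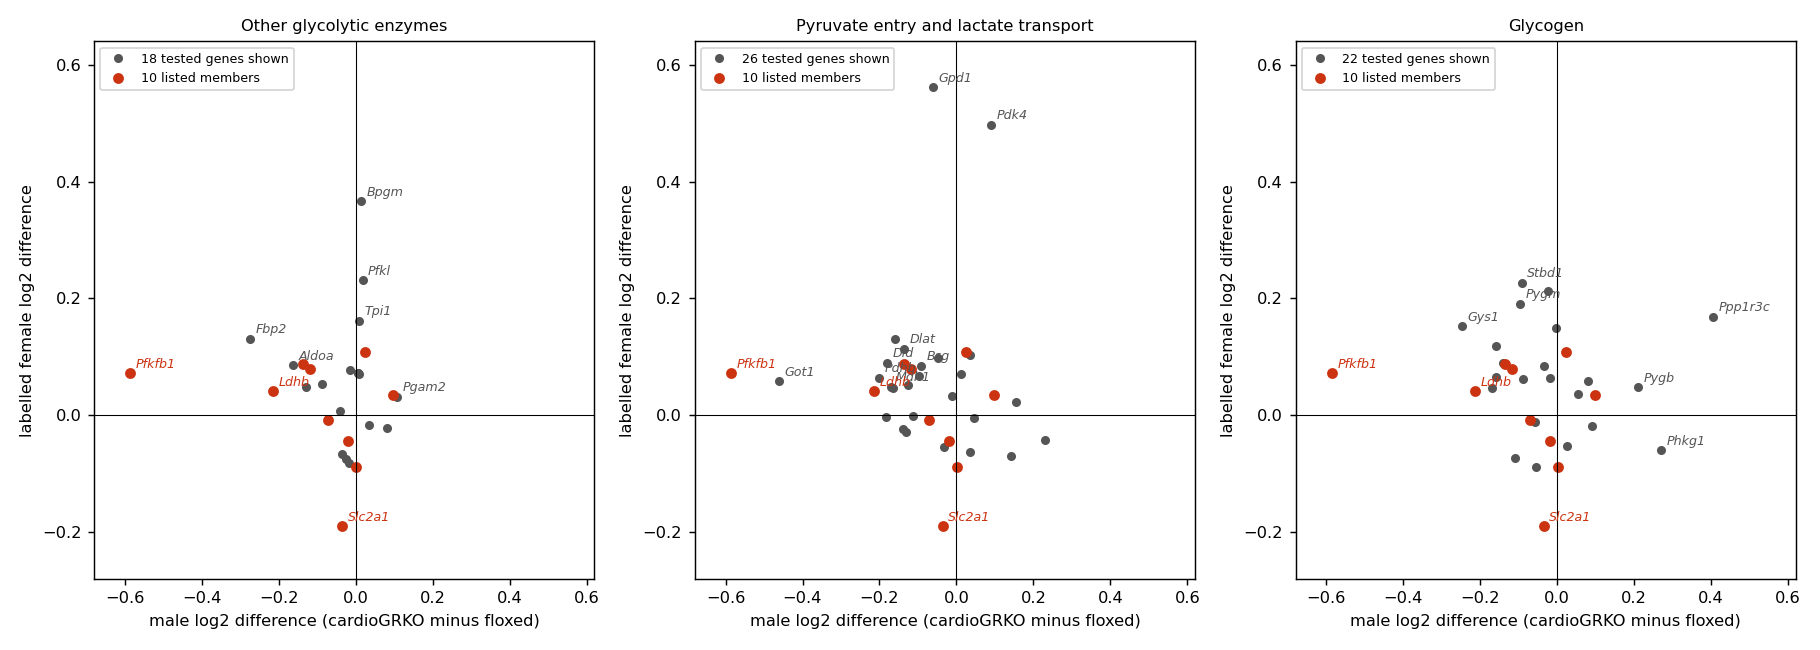
Log2 difference between cardioGRKO and floxed libraries in males (horizontal axis) and in the libraries labelled female (vertical axis) for the reported genes of 3 lists (grey) and the 10 genes (red, the same in each panel). Got1 lies at -0.46 on the male axis, and Gpd1 and Pdk4 lie at 0.56 and 0.50 on the female axis.

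Of 22 tested genes for other transporters and insulin-stimulated uptake, 6 were higher and 5 lower in males (7 lower with median centring, and 4 lower after quantile normalization) and 4 were higher and 6 lower in females. Among the lower female calls was Slc5a1 at -0.237, named after its values were seen. Its SD was 0.201 under the female floxed label and 0.003 under the female cardioGRKO label. The part of epithelial RNA in it was not tested. Txnip, the thioredoxin-interacting protein that restrains glucose uptake, read 14.67, 14.65 and 14.67 under the female floxed label and between 13.73 and 13.88 in the other 9. The female difference was -0.79 (limma, adjusted p = 2.3e-16), also -0.79 without the 2 libraries with epithelial transcripts, and the male one 0.11. Its relative Arrdc4 fell in both sexes, by 0.32 and 0.19. Tbc1d1, a Rab regulator that holds GLUT4 inside the cell, rose in males from 9.96, 9.98 and 9.93 to 10.61, 10.61 and 10.63 and fell in females from 10.35, 10.28 and 10.36 to 10.05, 9.97 and 10.05 (0.66 and -0.30). Tbc1d4, the related regulator, rose by 0.28 in females. Sort1, the sortilin of GLUT4 vesicles, rose by 0.47 in males, and Pik3r1, a regulatory subunit of the insulin-activated lipid kinase, fell by 0.31.

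Among 22 tested regulators, 8 were lower and 2 higher in males, and 5 were higher and 6 lower in females. Egln1, the oxygen sensor that marks hypoxia-inducible factor for destruction, fell by 0.32 in males and rose by 0.17 in females. Egln3, its relative, and Mlxipl, a carbohydrate-responsive factor, fell by 0.33 and 0.31 in males. Prkag2, a subunit of the energy sensor AMPK, rose by 0.41 in males, and the catalytic subunit Prkaa2 rose by 0.13 in females. Klf15, a target of the glucocorticoid receptor, and the coactivator Ppargc1a fell by 0.35 and 0.19 in females. Of 16 tested genes of the pentose phosphate, hexosamine and polyol branches, 5 were lower and 1 higher in males. In females 5 were higher and 3 lower, or 4 and 1 without female cardioGRKO 2. Among the lower female calls was Tkt at -0.665, also named after its values were seen. Its SD was 0.706 under the female floxed label and 0.009 under the female cardioGRKO label. The part of epithelial RNA in it was not tested. Sord, the sorbitol dehydrogenase, fell by 0.27 in males and rose by 0.14 in females, as did H6pd at -0.12 and 0.14. Rpia and Gfpt2 fell by 0.15 and 0.18 in males, and the O-GlcNAc enzymes Mgea5 and Ogt changed by 0.13 and -0.092 in females.

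Markers of atrial muscle and of cardiomyocytes in general differed between groups as well. The summed level of 10 atrial markers was 34500 to 35000 in male floxed and 145000 to 146000 in male cardioGRKO libraries, and 114000 to 117000 and 56300 to 57300 under the female floxed and cardioGRKO labels. All 10 were called higher in males and 9 were called lower in females. That of 12 cardiomyocyte markers was 3040000 to 3100000 in male floxed and 2790000 to 2820000 in male cardioGRKO libraries, with 10 of 12 called lower. Under the female labels it was 2780000 to 2880000 and 2850000 to 2880000, with 4 higher and 1 lower. Epithelial markers (12) summed to 43600 and 59800 in female floxed 1 and 2, as labelled, and to between 24800 and 29400 in the other 10, with 11 called lower under the female cardioGRKO label and 1 called lower in males. The 1 called in males was Dsp, at -0.16. Dsp and Perp, named after their values were seen, made up most of the sums in the other 10. Their means were 14.48 and 12.24 in male floxed libraries, where the next highest of these markers, Krt12, stood at 7.63. Adipocyte markers summed to 25500 to 26300 in male floxed and 20800 to 20900 in male cardioGRKO libraries, with 4 of 8 called lower and 2 higher. Named after their values were seen, Fabp4, the most abundant of them, went from 14.56 to 14.22 and Cfd from 7.98 to 8.49. The part of these differences in cell content in the values of the 10 genes was not tested.

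**Figure D5:**
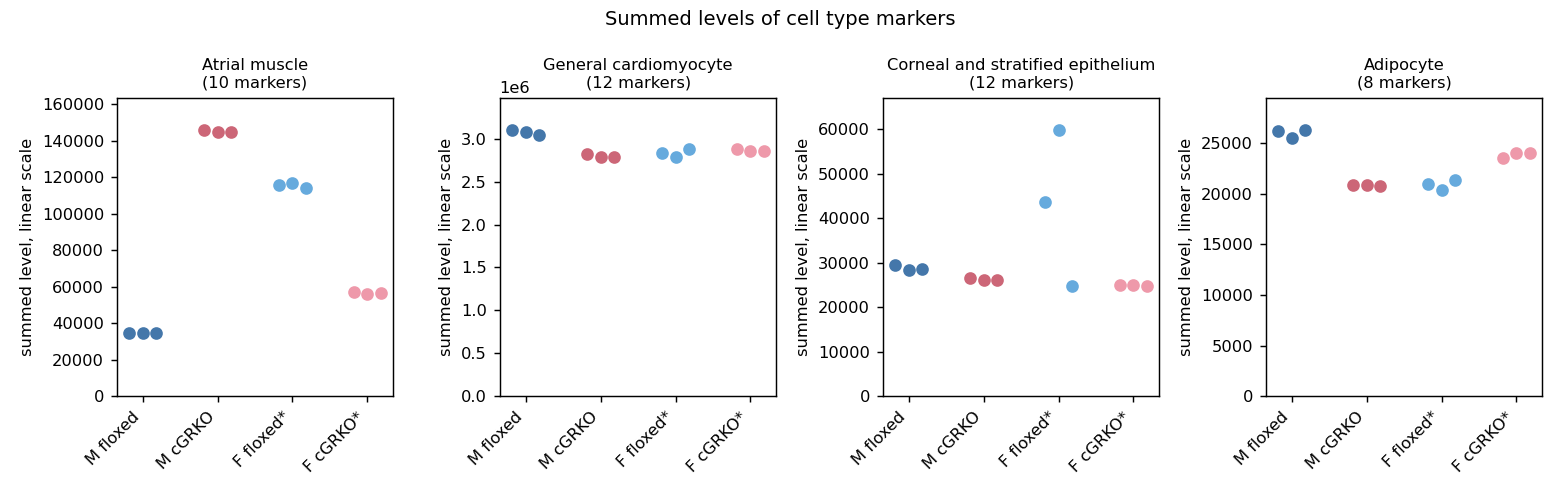
Summed level of the tested markers of 4 cell types in each library (vertical axes, linear scale of the deposited values, starting at 0), with points for replicates 1 to 3 of each group; an asterisk marks groups named as labelled. Atrial markers are lowest in male floxed libraries, at 34500 to 35000, and epithelial markers are high in the libraries labelled female floxed 1 and 2. In the other libraries the epithelial sum comes mostly from Dsp and Perp.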

How the data were processed

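RNA was measured by sequencing in 12 libraries. Per the submitters' processing notes, the authors used Trim Galore, TopHat2, HTSeq and DESeq2 with build mm9, with no versions. The deposited values are log2 normalized expression, 1 column per library, with no replicate pooling per the file headers. They reach -2.21, and 4895 of 24918 rows are 0 throughout. Shrinkage of low values was inferred from them and no header states it, so small differences of low genes may be understated. Depth is unknown, and precision is the spread between libraries.

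Testing covered the 14721 genes that reached log2 of 10 in 3 or more libraries. All 4 groups entered a single limma model (limma 3.58.1, R 4.3.3), which left 8 residual degrees of freedom and used empirical Bayes moderation that follows expression level. Adjusted p-values are two-sided, from limma, by the Benjamini-Hochberg method across those 14721 genes, and a gene was called under 0.05. Ratios were tested with the exact permutation test of SciPy 1.17.1. Tested on simulated data (14721 genes, male comparison), the fit recovered 50% of 50 genes shifted by 0.1 log2 units, 98% of those shifted by 0.25 and 100% of those shifted by 0.5. For the female comparison these shares were 32%, 100% and 100%, and for the difference between sexes 16%, 76% and 92%. Each simulation shifted 200 genes and left the rest equal. In the data far more were called, from 27.4% in males to 31.3% between the sexes. The adjusted cutoff therefore differs, and these shares do not carry over directly.

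The 10 genes, lists, tests and alternatives were chosen with earlier results of these data known. Named genes of the other lists are up to 4 called genes with the smallest p in each sex, otherwise up to 2; nearest genes are the 3 closest to the member with the largest difference. Of the genes this rule picks, 3 are not reported here. Markers other than atrial, cardiomyocyte, epithelial, adipocyte and red cell ones are given in the closing section. Alternatives covered filters, scaling, moderation, library weights, a replicate block, fits within the compared groups and leaving out libraries.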

Additional observations from a re-analysis of the deposited data

Results flagged for a closer look

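The difference between cardioGRKO and floxed libraries was not the same in the 2 sexes for 8 of the 10 genes, by limma's test of the male minus the female difference. These values, on the log2 scale, were 0.16 for Slc2a1, -0.06 for Slc2a4, -0.20 for Hk2, -0.09 for Pfkm, -0.66 for Pfkfb1, 0.09 for Pfkfb2, -0.22 for Ldha and -0.26 for Ldhb. The value for Pfkm reverses to 0.081 after quantile normalization, and those for Slc2a1 and Slc2a4 are not called without the libraries labelled female floxed 1 and 2. With the female labels exchanged, Slc2a1, Pfkm and Pfkfb2 would be called in the other direction and Hk2 and Ldha would not be called. All of them set male differences against differences between libraries whose female labels Nr3c1 puts in question.

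The ratio of Hk1 to Hk2 shifted by 0.22 in males and by -0.05 in females, and that of Pfkfb1 to Pfkfb2 by -0.59 and 0.16. Groups did not overlap in either sex, but for Hk1 to Hk2 in females they nearly touched. There the lowest ratio under the floxed label was -0.409 and the highest under the cardioGRKO label -0.411. Whether the sexes differ in these ratios was not tested.

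The same test was passed by 39 named genes of the other lists, against 31.3% of all genes. These genes were picked for small p in the male or the female difference, which together make up the tested value. Their passing was therefore favoured in advance, and nothing is read from the count. Of these, 22 would, under exchanged female labels, be called in the same direction, 14 in the other, and 3 not. The most negative values were those of Gpd1 at -0.62, Got1 at -0.52, Egln1 at -0.49, Pdk4 at -0.41, Sord at -0.41, Fbp2 at -0.40 and Gys1 at -0.40. They were followed by Egln3 at -0.38, Tbc1d4 at -0.36, Bpgm at -0.35, Pik3r1 at -0.32, Stbd1 at -0.32, Pygm at -0.29 and Dld at -0.27. Next came Mlxipl at -0.27, H6pd at -0.26, Pdhb at -0.26, Aldoa at -0.25, Dlat at -0.25, Mdh1 at -0.22 and Pfkl at -0.21. Smaller negative values belonged to Gfpt2 at -0.20, Bsg at -0.18, Rpia at -0.16, Tpi1 at -0.15, Arrdc4 at -0.13, Mgea5 at -0.13 and Prkaa2 at -0.12. Positive values were found for Tbc1d1 at 0.96, Txnip at 0.89, Prkag2 at 0.59, Sort1 at 0.55, Phkg1 at 0.33 and Klf15 at 0.27. Smaller ones belonged to Ppp1r3c at 0.24, Pygb at 0.16, Ppargc1a at 0.11, Ogt at 0.10 and Pgam2 at 0.08. The adjusted p of these genes ranged from 3.1e-15 for Txnip to 0.034 for Pgam2, whose call was lost under 11 of 21 alternatives. That of Arrdc4 was lost without male floxed 3, male cardioGRKO 1 or female cardioGRKO 2 (adjusted p = 0.058, 0.061 and 0.059), and those of Bsg, Mdh1 and Prkaa2 after quantile normalization (-0.009, -0.020 and -0.075).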

How the results depend on the processing

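Quantile normalization reversed the sex differences of Pfkm (0.081 for male minus female and 0.048 between floxed groups), of Ldhb (0.002) and Hk1 (0.030) between floxed groups, and the differences, small or uncalled, of Gapdh in males (0.003) and of Hk1 and Bsg in females (-0.006 each). It also moved ratios, to -0.11 for Slc2a1 to Slc2a4, 0.23 for Pfkfb1 to Pfkfb2 and 0.07 for Ldha to Ldhb in females, and to 0.04 for Ldha to Ldhb in males. The cause was not tested. Of uncalled values near 0, Pfkfb2 in males was -0.009 with median centring, and Slc2a1 between floxed groups was 0.004 with library weights. The replicate block set female against male libraries at the fitted level of replicate 1 and not between group means. Its counts there are therefore not for the same comparison. It gave 0.024 for Slc2a1 between floxed groups, and 4 members called between the cardioGRKO groups, where group means gave 8. Over all genes it gave 1388 calls between the cardioGRKO groups against 3568, and 4187 against 6502 between the floxed groups. No effect of replicates is read from these counts. The replicate block was run although same-numbered libraries share only a number: the correlations of their deviations were 0.066, -0.056 and -0.031 in males and 0.093, -0.110 and 0.148 in females. Single libraries left out gave 6 members called in males, 5 to 6 in females and 6 to 8 between the sexes. They also gave -0.012 to 0.011 for Pfkfb2 and -0.048 to 0.022 for Gapdh in males, -0.073 to 0.010 for Gapdh in females and -0.028 to 0.066 between the sexes, -0.020 to 0.020 for Slc2a1 between floxed groups, and 5 to 8 genes called in females in the pentose phosphate list. The male differences of Pfkfb1, Ldha, Ldhb, Hk2, Slc2a4 and Hk1 kept their direction and call under all 15 alternatives. Leaving out female floxed 1 and 2 together gave 2734 female calls over all genes in place of 4309, and rests on the third library of that group, which is assumed to vary like the others. With the female labels exchanged, the differences between sexes would reverse for Slc2a1 (-0.225), Pfkm (0.133), Pfkfb2 (-0.088) and Gapdh (-0.062), and that between the cardioGRKO groups for Slc2a1 (0.029). This exchange and the alternatives for the other lists were added after the data were seen.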

Other observations

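Other marker lists gave these counts. For scale, the shares over all genes were 14.6% lower and 12.8% higher in males. Under the female labels they were 15.2% higher and 14% lower. Nothing particular to a cell type is read from the counts. Endothelial markers (9) were lower in 8 and higher in 1 case in males, and lower in 2 and higher in 4 in females. Fibroblast markers (8) were higher in 6 cases and lower in 0 in males, and higher in 1 and lower in 5 in females. Skeletal muscle markers (7) were higher in 5 and lower in 0 in males, and higher in 5 and lower in 1 in females. Smooth muscle and pericyte markers (7) were higher in 1 and lower in 4 in males, and higher in 2 and lower in 4 in females. Macrophage markers (7) were called in 0 cases in males, and were higher in 4 and lower in 1 in females. Red cell markers (3) were higher in 1 case in males.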
